A study of Mus musculus with 7 samples.

Results

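The Myc network is a small family of basic helix-loop-helix zipper transcription factors, and its members here are Myc, Mycn, Max, Mxd1, Mxd3, Mxd4, Mxi1, Mnt, Mlx and Mga. They were taken by gene symbol from a count table of 24419 mouse genes, and all 10 have a row in it. The samples are cultured LLC1 cells, a line derived from the Lewis lung carcinoma of mice, and their polyadenylated RNA was sequenced. The 3 knockdown libraries (KD) are labelled as LLC1 in which Ddx54, a nucleolar RNA helicase gene, was knocked down with an shRNA, and the 4 wild-type libraries (WT) as LLC1 with wild-type Ddx54. The labels name no control construct for WT, no shRNA sequence and no clone. Whether replicates came from different cultures is not stated, and the p-values therefore cover a sample-to-sample spread that may be only technical.

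Myc is a growth-promoting factor that binds DNA only when paired with Max, most strongly at the E-box sequence CACGTG. Mxd1, Mxd3, Mxd4, Mxi1 and Mnt compete for Max and, as pairs with it, bring Sin3 corepressors to the same sites. Mga is a large Max partner that belongs to a Polycomb complex, and Mlx is a Max-like factor that pairs with MondoA, ChREBP and some Mxd proteins. In tumour lines, high Myc is commonly tied to ribosome production, metabolism and division.

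The E-box that gives the network its shared target is shown first, as it occurs at the members' own promoters. RefSeq promoter windows of 300 bases (250 before to 50 after the start site, GRCm38.p6) matched 9 of the 10 members, all but Myc. CACGTG, which reads the same on both strands, was present for 4 of these 9, counting any window of a gene. It was in 2349 of all 32851 single windows (7.15%) and, counted by gene, in 8.09% of all genes with a window. Among tested genes with a window the share was 12.1%. The stretches below are 30 bases each, read 5′ to 3′ on the gene's strand, with the E-box in capitals.
Max: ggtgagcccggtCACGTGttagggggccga
Mxd4: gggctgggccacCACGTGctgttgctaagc
Mnt: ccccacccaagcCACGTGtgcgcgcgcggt
Mlx: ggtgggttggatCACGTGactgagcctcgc
The Max stretch is chr12:76962234-76962263 on the minus strand, and its E-box begins at position -3 relative to the RefSeq start site. That start lies upstream of the GENCODE M21 start of Max at 76962201, and the last bases of this window were found in no GENCODE transcript of the gene, unlike those of the other members' windows. The Mxd4 stretch is chr5:34187912-34187941 on the minus strand, with the E-box at -219. The Mnt stretch is chr11:74830789-74830818 on the plus strand, with the E-box at -123. The Mlx stretch is chr11:101087238-101087267 on the plus strand, with the E-box at -40. These letters are a description of the windows and not evidence of binding.

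Library totals, the depth behind each value, were 14987324 to 17702932 counts in KD and 15293346 to 18673395 in WT. Values are CPM, counts scaled to the library total and TMM factors, with mean ± SD over n = 3 KD and n = 4 WT libraries. Differences are log2 fold changes of KD over WT, with the edgeR quasi-likelihood test and Benjamini-Hochberg adjustment over 11594 tested genes (threshold 0.05). Ddx54 was at 39.2 to 45.9 CPM in KD, against 78.6 to 83.2 CPM in WT, and every KD library was below every WT library (log2 fold change -0.90). The line expressed Vim (5783 ± 79.7 CPM in KD, 6255 ± 74.2 in WT), Krt18 and Krt8 (23.6 ± 7.61 CPM in KD, 20.3 ± 2.20 in WT), while Epcam and Cdh1 had at most 3 counts in any library. The keratin gene Krt18 fell, at 131.7 ± 4.02 CPM in KD and 217.5 ± 4.77 CPM in WT (log2 fold change -0.72, adjusted p = 4.62e-10, edgeR). Krt19 fell as well, at 1.08 ± 0.54 CPM in KD and 4.39 ± 0.49 CPM in WT (-2.03, adjusted p = 0.000811, edgeR), and in both genes the groups did not overlap. Of 6 leukocyte markers, 5 averaged under 1 CPM, Cd3e was at 0, and Cd68 was the one above, while all 3 endothelial markers averaged under 1 CPM with Cdh5 at 0. The leukocyte markers summed to 2.80 to 4.67 CPM in KD and 2.13 to 5.03 CPM in WT, and 4 fibroblast markers to 28.4 to 31.6 CPM in KD and 22.1 to 28.1 CPM in WT. Most of the fibroblast sum was Pdgfra, at 24.5 ± 1.23 CPM in KD and 19.0 ± 0.78 in WT (adjusted p = 0.0578, edgeR). On average Dcn and Col1a1 were lower in KD without passing, and Col1a2, which was not tested, was higher. The ribosomal RNA gene Rn45s took 7.96 to 9.07% of counts in KD and 10.7 to 12.5% in WT, and with Rn45s left out each tested member kept its direction and its side of the threshold.

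Of the 10 members, 9 passed the low-count filter. In KD 4 members fell (Myc, Mxi1, Mnt and Mxd4), 2 rose (Mxd3 and Mga) and 3 did not pass (Max, Mlx and Mxd1). Among all tested genes 15.3% were lower, 14.1% were higher and 29.4% changed in either direction. The groups did not overlap for 4 members (Myc, Mxi1, Mnt and Mxd3), as for 35.1% of all tested genes. The median log2 fold change was -0.46 over the tested members and 0.001 over all tested genes.

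**Figure D1:**
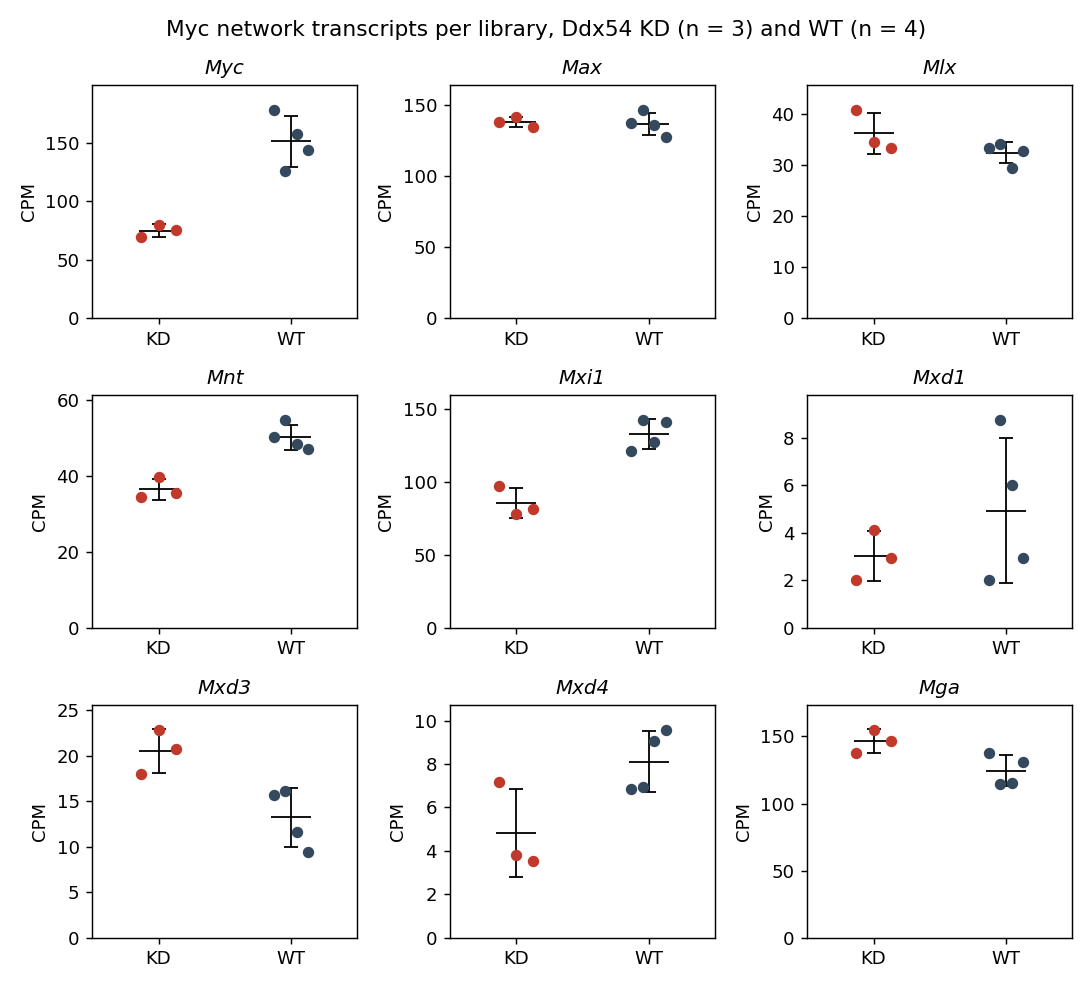
CPM (linear axis from 0) of the 9 detected members in each library, with KD left and WT right; points are libraries, and the black mark and bar are the mean and SD over 3 KD and 4 WT libraries. Myc, Mxi1 and Mnt lie lower in every KD library than in any WT library, Mxd3 lies higher, and Max is level.

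Myc (chr15:61985391-61990374, plus strand, GRCm38, a protein-coding gene) was at 69.0, 80.1 and 75.8 CPM in KD libraries 1 to 3, against 178.3, 126.1, 157.3 and 143.7 CPM in WT libraries 1 to 4. The KD libraries were close together and all below the lowest WT library, which was WT 2. The KD mean was 49.5% of the WT mean, a log2 fold change of -1.01 (SE 0.093, 95% interval -1.20 to -0.82, adjusted p = 3.31e-10). The exact permutation p of the Myc CPM difference, two-sided, was 0.0286, the smallest that 3 against 4 libraries can give. In bulk RNA, fewer cells with the transcript and less transcript per cell cannot be told apart. By fold change Myc ranked 437th from the lowest of the 11594 tested genes.

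Mycn, the paralog of Myc that is best known from neural and embryonic cells, had 0 counts in all 7 libraries. A count of 0 allows up to 3 counts, which is 0.163 to 0.195 CPM in KD and 0.164 to 0.204 CPM in WT. Mycl, the third paralog, was outside the members and had at most 10 counts in any library. Myc was thus the Myc-type member of the network with counts at a level that could be tested.

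Max, the shared partner, is encoded at chr12:76937269-76962201 on the minus strand. Max had 138.3, 141.5 and 134.7 CPM in KD libraries 1 to 3, against 137.2, 146.8, 136.3 and 127.9 CPM in WT libraries 1 to 4. The groups overlapped, and all 3 KD libraries lay within the WT range. The log2 fold change was 0.01 (95% interval -0.14 to 0.16, adjusted p = 0.926, edgeR), so a change as large as that of Myc lies outside the interval. Its sign was negative without KD replicate 2 or WT replicate 4 (lowest -0.019).

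Mxi1 and Mnt, both Max partners that recruit Sin3, fell. Mxi1 (chr19:53310518-53375810, plus strand) had 97.4, 78.1 and 81.4 CPM in KD libraries 1 to 3, against 121.6, 142.8, 127.3 and 141.1 CPM in WT libraries 1 to 4. The highest KD library, KD 1, was still below every WT library, and the log2 fold change was -0.64 (SE 0.086, adjusted p = 5.43e-07, edgeR). RefSeq lists 3 start windows for Mxi1, which counts per symbol cannot tell apart. Mnt, which is made in dividing and resting cells alike, is encoded at chr11:74830920-74845725 on the plus strand. Mnt had 34.4, 39.7 and 35.5 CPM in KD libraries 1 to 3, against 50.4, 54.9, 48.5 and 47.2 CPM in WT libraries 1 to 4. The gap between the groups was wider than the range within KD, and the log2 fold change was -0.46 (SE 0.11, adjusted p = 0.00205, edgeR).

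Mxd4 and Mxd1, which are known from differentiating cells, were scarce in LLC1. Mxd4 (chr5:34173883-34187720, minus strand) had 7.16, 3.80 and 3.51 CPM in KD libraries 1 to 3, against 6.87, 6.93, 9.09 and 9.59 CPM in WT libraries 1 to 4. KD 1 was at the level of the lower WT libraries, so the groups overlapped, and the fall of -0.75 (SE 0.28, adjusted p = 0.0436, edgeR) lay near the threshold. Its call was lost without KD replicate 2 (adjusted p = 0.188) or 3 (0.209) and without WT replicate 3 (0.0976) or 4 (0.119, edgeR), and without KD replicate 1 the Mxd4 log2 fold change was -1.15. Mxd1 (chr6:86647042-86669161, minus strand) had 2.03, 4.12 and 2.93 CPM in KD libraries 1 to 3, against 2.02, 8.76, 6.01 and 2.96 CPM in WT libraries 1 to 4. These values rest on 34 to 129 counts a library, and the WT libraries alone spanned more than the KD range. Mxd1 did not pass, with a log2 fold change of -0.69 whose 95% interval ran from -1.53 to 0.14 (adjusted p = 0.223, edgeR). The Mxd1 log2 fold change was -0.27 without WT replicate 2 and -0.44 with limma-voom.

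Mxd3 moved the other way from Mxi1, Mnt and Mxd4. In mouse, Mxd3 is known as the Mxd gene that is expressed in cycling cells around S phase. Mxd3 (chr13:55325168-55329823, minus strand) had 18.02, 22.8 and 20.7 CPM in KD libraries 1 to 3, against 15.7, 16.1, 11.6 and 9.41 CPM in WT libraries 1 to 4. Each KD library was above each WT library, but the WT libraries formed a higher pair (1 and 2) and a lower pair (3 and 4). The log2 fold change was 0.64 (SE 0.19, adjusted p = 0.0086, edgeR), and without KD replicate 2 the call was lost (0.55, adjusted p = 0.0721). Exons of Mxd3 share 105 bases with Prelid1 on the opposite strand. Prelid1, named for that overlap, was at 145.1 ± 11.04 CPM in KD and 157.1 ± 19.6 CPM in WT (adjusted p = 0.325, edgeR).

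Mga and Mlx, the members with partners outside the Myc and Mxd branches, had the smallest changes after Max. Mga (chr2:119897228-119969581, plus strand) had 137.7, 155.1 and 146.8 CPM in KD libraries 1 to 3, against 138.0, 114.5, 115.2 and 130.6 CPM in WT libraries 1 to 4. KD 1 and WT 1 were almost equal, so the groups met, and the rise was small at 0.23 (SE 0.078, adjusted p = 0.0222, edgeR). The call of Mga was lost without KD replicate 2 (adjusted p = 0.149) or 3 (0.0673) and without WT replicate 2 (0.0588) or 3 (0.0806, edgeR). Mlx (chr11:101087277-101092207, plus strand) had 40.8, 34.6 and 33.3 CPM in KD libraries 1 to 3, against 33.4, 34.2, 29.5 and 32.7 CPM in WT libraries 1 to 4. KD 1 stood above the rest and the other KD libraries lay at the WT level (log2 fold change 0.16, 95% interval -0.093 to 0.41, adjusted p = 0.370, edgeR), and the log2 fold change was 0.066 without KD replicate 1. Of the Mlx exon bases 19.3% are shared with Psmc3ip on the opposite strand. Opposite-strand genes also share 6.06% of the exon bases of Mxd4 (Gm42846), 2.84% of Mxi1 (Gm10197) and 14.2% of Ddx54 (Gm43579). The strand setting of the counting is not given in the sources used here.

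**Figure D2:**
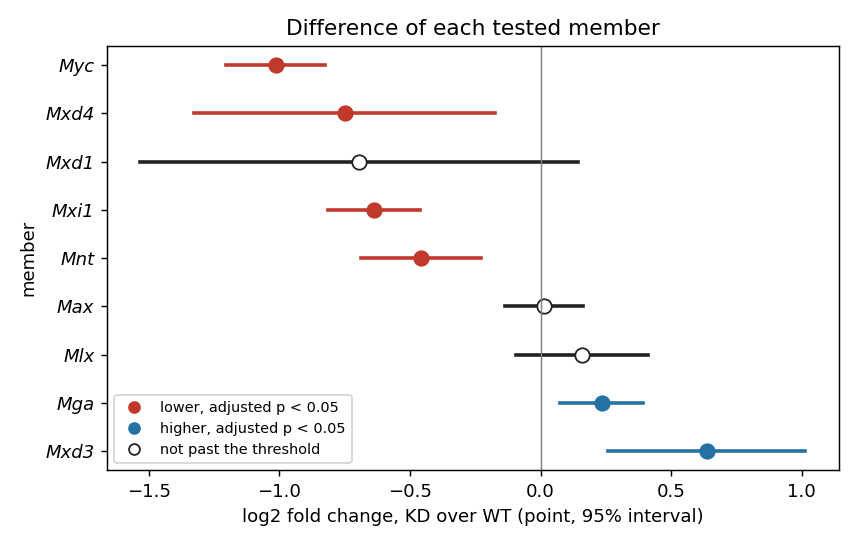
Log2 fold change of KD over WT (x axis) for the 9 tested members, with the 95% interval from the edgeR fit as a bar; filled points passed the adjusted threshold of 0.05. Myc has the lowest value, -1.01, the interval of Max is narrow around 0, and that of Mxd1 is the widest.

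To set members beside each other, counts were divided by annotated exon length and scaled to a fixed total over genes with a length (TPM). TPM uses no TMM factors, so KD and WT levels compare differently in TPM and in CPM. Max averaged 138.2 CPM in KD and 137.0 in WT. By TPM, Max was higher in every KD library (137.08 to 145.05) than in any WT library (128.56 to 136.75). In KD the order was Max (141.0 ± 3.99 TPM), Myc (101.3 ± 7.81), Mlx (66.5 ± 7.30), Mxi1 (46.1 ± 5.46), Mga (35.1 ± 2.20), Mxd3 (31.8 ± 3.85), Mnt (29.0 ± 2.34), Mxd4 (2.09 ± 0.87) and Mxd1 (1.57 ± 0.55). In WT it was Myc (194.9 ± 30.8 TPM), Max (132.9 ± 3.38), Mxi1 (68.2 ± 5.46), Mlx (56.7 ± 3.45), Mnt (37.9 ± 1.40), Mga (28.4 ± 3.23), Mxd3 (19.4 ± 4.33), Mxd4 (3.35 ± 0.67) and Mxd1 (2.41 ± 1.43). Neighbours from Mga to Mnt in KD, and Mxd4 and Mxd1 in each group, lay within their summed SDs. The order rests on the lengths used: with the median length of basic protein-coding transcripts Mxi1 ranked 2 in KD and 1 in WT, and Myc ranked 3 in KD and 2 in WT.

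Myc transcripts also stood lower against those of its partner and of its competitors. Per library, Myc was 0.66, 0.75 and 0.74 times the Max TPM in KD libraries 1 to 3, against 1.72, 1.14, 1.53 and 1.49 times in WT libraries 1 to 4. The summed TPM of Mxd1, Mxd3, Mxd4, Mxi1 and Mnt was 110.5 ± 3.35 in KD and 131.2 ± 6.08 in WT, 84.2% of WT, while Myc TPM was 52.0% of WT. The ratio of Myc to that sum was 0.83, 0.96 and 0.96 in KD libraries 1 to 3, against 1.80, 1.11, 1.61 and 1.45 in WT libraries 1 to 4. The groups did not overlap in this ratio, also with basic transcript lengths, where it was lower throughout (0.50 ± 0.065 in KD, 0.73 ± 0.15 in WT). With basic lengths the gap was narrow, from 0.545 in the highest KD library (KD 2) to 0.556 in the lowest WT library (WT 2). These ratios are descriptions with no test. By annotated exon length, Mxd3 took 28.8 ± 3.37% of the sum in KD and 14.8 ± 3.18% in WT. Mxi1 took 41.7 ± 4.85% in KD and 52.0 ± 3.45% in WT. These shares rest on the lengths used. With basic lengths Mxi1 ranked above Myc in both groups, and the shares were not computed.

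**Figure D3:**
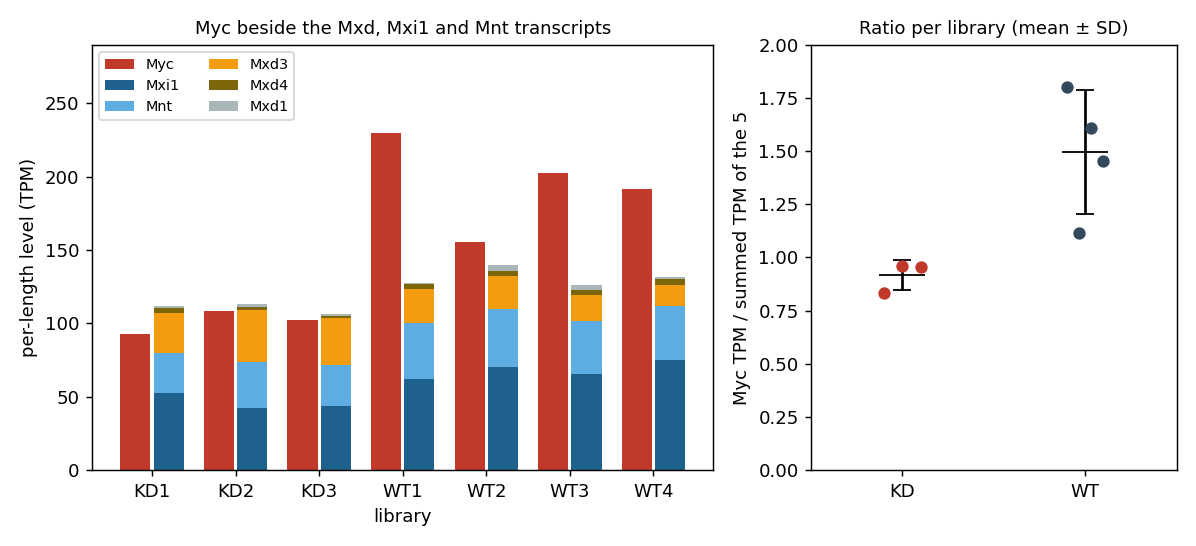
Left, TPM per library of Myc (red) beside the stacked TPM of Mxi1, Mnt, Mxd3, Mxd4 and Mxd1; right, the ratio of Myc to that stack in each library, with mean and SD, KD left of WT. With annotated exon lengths, the ratio is 0.83 to 0.96 in the KD libraries and 1.11 to 1.80 in the WT libraries. By the same lengths the orange Mxd3 share is larger in KD.

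Genes tied to Myc's own transcript and protein were read next, from lists of textbook roles. Of 15 genes of Myc mRNA synthesis and stability, 6 rose (40%, against 14.1% of all tested genes) and 3 fell (20%, against 15.3%). Their median log2 fold change was 0.16. Pvt1, a long noncoding RNA gene that starts 47611 bases beyond the end of Myc on chromosome 15, fell with it. Pvt1 had 76.1, 85.7 and 79.0 CPM in KD libraries 1 to 3, against 139.4, 128.2, 138.2 and 130.2 CPM in WT libraries 1 to 4 (log2 fold change -0.74, SE 0.079, adjusted p = 5.91e-09, edgeR). The groups were far apart beside their spread. Igf2bp1, whose protein binds and stabilises Myc mRNA, rose to 70.1 ± 1.23 CPM in KD, against 43.4 ± 1.29 in WT (0.69, adjusted p = 1.36e-06, edgeR). The RNA-binding gene Tia1 (0.60) and Fubp1 (0.43), whose protein binds a far-upstream element of the Myc gene, also rose.

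Of 25 genes of Myc protein turnover, 6 rose (24%, against 14.1% of all tested genes) and 5 fell (20%, against 15.3%), with a median of 0.04. Fbxw7, which encodes the ubiquitin ligase adaptor for phosphorylated Myc, rose to 85.7 ± 6.76 CPM in KD, against 61.2 ± 5.79 in WT (0.49, adjusted p = 0.000148, edgeR). Skp2, another Myc ligase adaptor and a cell cycle gene, rose to 63.6 ± 4.21 CPM in KD, against 36.3 ± 4.29 in WT (0.81, adjusted p = 8.22e-07). Cip2a, which protects Myc from phosphatase PP2A and stands in the table under an older symbol, rose by 0.80 (adjusted p = 4.73e-10). The kinase gene Pim1 (-0.86) and the ligase adaptor gene Fbxo32 (-0.75) fell, Fbxo32 without a call when KD replicate 2 was left out (adjusted p = 0.0563, edgeR). The list holds genes that stabilise Myc and genes that degrade it, and members of each kind are among those that rose.

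Genes of the proteins that work with the network are given here beside all tested genes, of which 14.1% rose and 15.3% fell (29.4% in either direction). The coactivator list, which also holds Zbtb17, has 16 genes. Of these 2 rose (12.5%), Hcfc1 (0.50) and Actl6a (0.44), and 0 fell with edgeR (1 at an unadjusted p under 0.05, and 0 with DESeq2 or limma-voom). Zbtb17, which encodes Miz1, the factor through which Myc represses genes, was at 20.6 ± 0.59 CPM in KD and 19.7 ± 1.92 in WT (0.06, 95% interval -0.25 to 0.38, adjusted p = 0.799, edgeR). Of 18 genes of the Sin3 and NCoR corepressors 4 rose (22.2%), among them Arid4a (0.43), Arid4b (0.36) and Ing1 (0.32). In that list 1 fell (5.56%), Sin3b (-0.37), whose protein was found as a partner of Mxd. In the Mga complex 2 of 10 genes rose (20%), L3mbtl2 to 68.4 ± 3.87 CPM in KD, against 42.6 ± 2.24 in WT (0.68, adjusted p = 2.73e-06, edgeR), and Tfdp1 (0.40). In that complex 0 fell with edgeR (1 at an unadjusted p under 0.05, 1 with DESeq2, 0 with limma-voom).

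Of 9 tested genes for other E-box factors with a zipper, 1 fell (11.1%, against 15.3% of all tested genes). It was Mitf, at 15.6 ± 1.40 CPM in KD and 27.4 ± 4.90 in WT (-0.81, adjusted p = 0.000184, edgeR). In this list 0 rose with edgeR, DESeq2 or limma-voom (1 at an unadjusted p under 0.05, Srebf2 at 0.18, adjusted p = 0.0961, edgeR). Mlxip, which encodes MondoA, the partner of Mlx, was at 7.70 to 11.3 CPM in KD and 5.82 to 9.70 CPM in WT (0.40, adjusted p = 0.228, edgeR). Mlxipl, which encodes ChREBP, had at most 2 counts in a library. Of 8 tested targets of Mlx pairs 4 fell (50%, against 15.3% of all tested genes) and 1 rose (12.5%, against 14.1%), with a median of -0.44. Txnip, the glucose-responsive target of MondoA, was at 48.7 ± 3.32 CPM in KD and 119.7 ± 11.6 in WT (-1.30, SE 0.092, adjusted p = 8.58e-13, edgeR). Klf10 (-0.51) and the desaturase gene Scd1 (-0.42) also fell. Fasn, the fatty acid synthase gene, which SREBP factors drive as well, rose to 176.8 ± 23.2 CPM in KD, against 91.1 ± 8.89 in WT (0.96).

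Among targets that Myc is known to activate, more rose than fell. Of 49 tested, 17 rose (34.7%, against 14.1% of all tested genes) and 5 fell (10.2%, against 15.3%), with a median of 0.13. The transferrin receptor gene Tfrc was at 106.4 ± 0.92 CPM in KD and 35.4 ± 6.999 in WT (1.59, SE 0.11). Mir17hg, host of the miR-17-92 cluster, was at 21.2 ± 1.93 CPM in KD and 7.46 ± 3.54 in WT (1.51). Cdc25a, the phosphatase gene of cell cycle entry, was at 92.0 ± 7.84 CPM in KD and 48.0 ± 3.94 in WT (0.94). The amino acid transporter gene Slc7a5 fell, to 144.8 ± 2.15 CPM in KD, against 286.9 ± 24.2 in WT (-0.99). Several of the genes that rose, such as Cdc25a, belong to the cell cycle as well, and Slc7a5 is also a target of ATF4, so the list does not isolate Myc. Without KD replicate 2 the number that fell was 3.

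Among targets that Myc is known to repress, the changes were falls. Of 15 tested, 6 fell (40%, against 15.3% of all tested genes) and 0 rose with edgeR, DESeq2 or limma-voom (0 at an unadjusted p under 0.05), and the median was -0.48. Gadd45a, a growth-arrest gene, was at 15.9 ± 2.002 CPM in KD and 88.4 ± 3.46 in WT (-2.48, SE 0.11), and Ddit3, the CHOP gene, was at 27.4 ± 1.33 CPM in KD and 118.5 ± 23.2 in WT (-2.11). Both are also induced by cell stress. Cebpd was at 5.12 ± 1.41 CPM in KD and 12.6 ± 3.68 in WT (-1.30), and Ndrg2 was at 21.6 ± 3.23 CPM in KD and 44.6 ± 6.599 in WT (-1.04). Each of these 4, named for the largest changes past the threshold, had all KD libraries below all WT libraries. Over the list the groups did not overlap for 8 of 15 genes, against 35.1% of all tested genes. The members, the lists and these targets were chosen with earlier results of the data known, and no list was tested as a set.

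**Figure D4:**
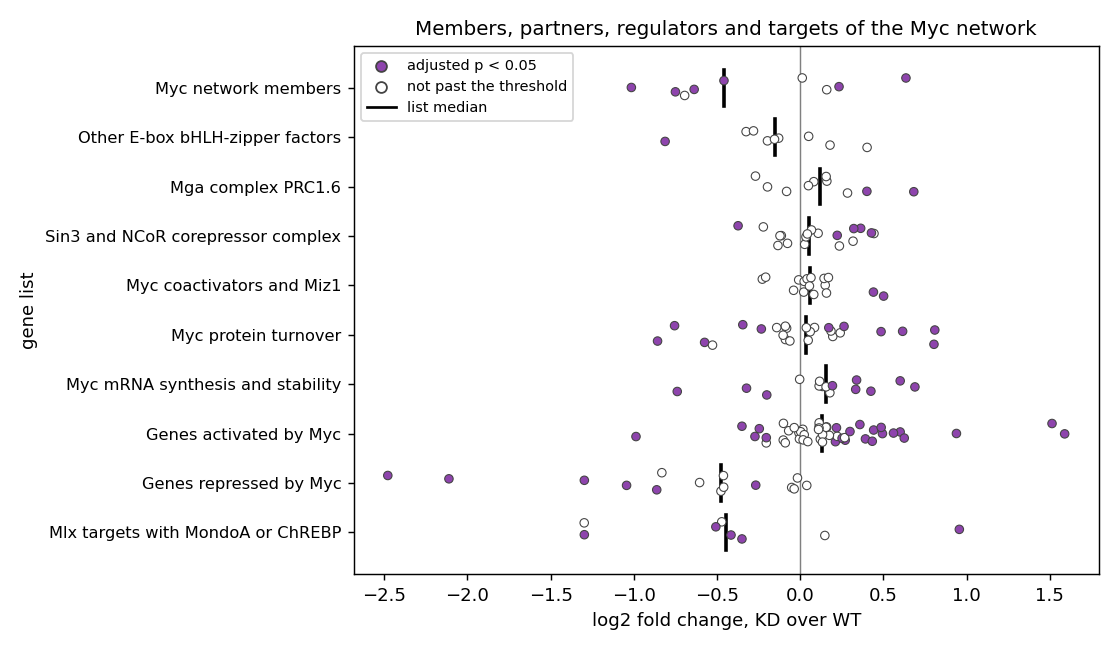
Log2 fold change of KD over WT for each tested gene (points, one row per list, spread vertically for legibility), with filled points past the adjusted threshold of 0.05 and a black line at each list's median. The medians are 0.13 for genes activated by Myc and -0.48 for genes repressed by Myc, and the members themselves lie from -1.01 to 0.64.

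Among 7829 named genes with a mean of at least 10 CPM, those whose log2 CPM, set to the WT mean, lay closest to Myc over the 7 libraries were Vcl, Slc14a1 and Klf9. Their root mean square differences from Myc were 0.066, 0.10 and 0.11 log2 units. Vcl, the vinculin gene of cell adhesions, was at 60.4 ± 6.19 CPM in KD and 116.9 ± 12.9 in WT. Slc14a1, a urea transporter gene, was at 126.9 ± 6.89 CPM in KD and 249.1 ± 24.8 in WT, and Klf9, a zinc finger factor gene, was at 128.5 ± 5.57 CPM in KD and 246.0 ± 14.5 in WT. The genes closest to Mxd3 were Atxn1l (0.14), Nudt1 (0.14) and Chek2 (0.16). These genes, like those closest to Myc, were chosen by closeness over the same 7 libraries, so their differences between groups follow from that choice. Nudt1, which encodes a hydrolase of oxidised nucleotides, was at 32.7 ± 1.51 CPM in KD and 21.1 ± 2.75 in WT. Atxn1l was at 23.3 ± 1.18 CPM in KD and 14.6 ± 1.98 in WT. Chek2, the checkpoint kinase gene, was at 22.9 ± 1.98 CPM in KD and 16.1 ± 2.39 in WT, and its call (adjusted p = 0.0166) was lost without KD replicate 2 (0.112) or WT replicate 4 (0.0544, edgeR).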

How the data were processed

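RNA of 7 LLC1 libraries was analysed. The authors deposited 1 table of unnormalised counts by gene symbol, with 0 columns of other samples. The submitters' processing notes name Trimmomatic, STAR, HTSeq and mm10. Annotation, strand setting and the handling of multiply matching reads were not given in the sources used here, so antisense neighbours and near-identical copies are uncertain. Counts were fitted over the whole table with edgeR 4.0.16 in R 4.3.3 (filterByExpr, TMM factors, robust quasi-likelihood test, no covariate). The SE is the absolute log2 fold change over the square root of F, which is approximate. CPM at low counts carries a wide counting error. Lengths and positions come from GENCODE M21 (GRCm38), matched by symbol for 95.6% of genes; TPM leaves out genes with no match. Libraries of a group differed by more than counting noise (chi-square over its degrees of freedom 8.31 to 16.3).

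The members and lists were chosen with earlier results of these data known. Genes named are the members, Ddx54, up to 4 genes past the threshold with the largest change in each list (or, if under 2 passed, the 2 of lowest p), Fbxw7, Pvt1, Zbtb17, Mlxip, marker genes, and the 3 genes most like Myc and like the member with the largest rise. Mycl, Mlxipl, Prelid1, Psmc3ip, Nme1, Ncl and Npm1 were added after their values were seen. Alternatives were leaving out each library, leaving out Rn45s, a block for the replicate number, DESeq2 1.42.0, limma-voom with limma 3.58.1, upper-quartile or RLE factors, and either no filter on low counts or a minimum of 50 counts in 3 libraries.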

Additional observations from a re-analysis of the deposited data

Results flagged for a closer look

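Among the WT libraries, 56 quantities (members, other named genes, library totals, the share of Rn45s and the ratio of Myc to its competitors) were searched for a library far from the other 3. Such a library was found for 4 of them, where chance gives about 2.80. Ndrg2 was at 34.8 CPM in WT 2, against 47.0 to 48.8 in the other WT libraries, Klf10 at 36.4 CPM, against 32.4 to 32.7, and Slc14a1 at 212 CPM, against 258 to 264. Krt19 was at 3.66 CPM in WT 3, against 4.52 to 4.69 in the other WT libraries. No member was among them. Myc itself was lowest in WT 2 without being set apart by this measure.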

How the results depend on the processing

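The falls of Myc (-1.09 to -0.93 log2 units over 15 alternatives), Mxi1 (-0.74 to -0.58) and Mnt (-0.52 to -0.41) passed in each alternative. Leaving out 1 library, 0 to 2 members were higher and 3 to 4 lower. Replicate numbers did not pair the libraries: deviations of same-numbered KD and WT libraries correlated at -0.034, -0.028 and -0.0063. With the replicate block 1 member was higher (Mga), 3 were lower and 1375 and 1487 of all genes were higher and lower; Mxd3 (0.51, adjusted p = 0.0597), Mxd4 (-0.71, adjusted p = 0.108) and Chek2 (0.44, adjusted p = 0.0760) lost their calls (edgeR). The sign of Max turned with the replicate block (-0.019), without KD replicate 2 and without WT replicate 4 (-0.019 to 0.046 with a library left out), and that of Krt8 without KD replicate 1 (-0.079 to 0.35 with a library left out); none of these passed. Vim (-0.11) passed as lower with DESeq2 (adjusted p = 0.0260) and limma-voom (adjusted p = 0.0159). In the lists, genes of the Mga complex that were lower numbered 1 with DESeq2 and 0 to 1 with a library left out. Lower genes of the coactivator list numbered 1 with upper-quartile factors, with no low-count filter and with at least 50 counts, and 0 to 1 with a library left out. Activated targets that fell numbered 3 to 5 with a library left out. The cause of these shifts was not tested. All other counts stayed within 1.5 times those reported. The log2 difference in the ratio of Myc to its competitors was -0.69, and -0.82 to -0.55 over its alternatives, of which the transcript lengths and the list counts were chosen after seeing the data. Mxd1 and Mxd4 had low counts, 34 to 162 a library, and Mxd1 ran from 37 to 129 counts among the WT libraries. What part of their spread comes from depth was not tested.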

Other observations

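The E-box CACGTG was in a promoter window of 12.5% of the 1276 genes higher in KD that have a window, 11.1% of the 1362 lower genes and 12.2% of the 6248 genes that did not pass. It was in 12 of 43 genes activated by Myc and in 3 of 11 genes repressed by Myc. Nme1, a nucleoside diphosphate kinase gene on chromosome 11, held it in each of 2 windows and was at 244.7 ± 8.25 CPM in KD and 161.3 ± 6.55 CPM in WT (log2 fold change 0.60, adjusted p = 1.19e-08, edgeR). Nme1 was chosen after its values were seen. The nucleolar Myc targets Ncl and Npm1 did not pass with edgeR, though Ncl passed as higher with limma-voom: Ncl was at 7214 ± 430.4 CPM in KD and 6662 ± 260.7 in WT, and Npm1 at 2439 ± 155.2 CPM in KD and 2559 ± 107.3 in WT.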
